A study of Mus musculus with 4 samples.

Results

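Elastic fibers give the aortic wall its recoil, and 10 genes of their core, scaffold, assembly and cross-linking machinery were examined in open chromatin maps of the mouse aorta: Eln, Fbn1, Fbn2, Mfap4, Mfap5, Emilin1, Fbln5, Efemp2, Lox and Loxl1. Accessible regions were taken as every deposited ATAC-seq peak in the gene body or within 20 kb of it in the GENCODE vM21 annotation, a rule that uses position alone. Of the 64205 peaks on chromosomes 1 to 19, X and Y in the 4 libraries, 110 lay at these genes, and merging peaks that shared at least 1 bp gave 72 regions of 42961 in all. ATAC-seq marks open chromatin by the insertions of the transposase Tn5, which reaches accessible DNA. The libraries came from aortic nuclei of mice at P60 (60 days), with 1 library from each genotype and sex, each pooling 2 mice of the same age and sex. Controls were Col3a1+/+ and VEDS mice Col3a1G938D/+, a heterozygous missense allele of type III collagen used as a model of vascular Ehlers-Danlos syndrome, both on the C57BL/6J background. Each library was analyzed in aggregate and cell types were not separated, so that opening in fewer cells and weaker opening per cell cannot be told apart. No sex was replicated within a genotype, and genotype, sex and library cannot be told apart in any comparison below. With 2 libraries against 2 no test between genotypes was made, and all comparisons are descriptions of these libraries.

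An elastic fiber has a core of elastin, secreted as tropoelastin and laid down on a scaffold of fibrillin microfibrils. Microfibril-associated proteins and emilin-1 decorate this scaffold or sit where it meets elastin, fibulins bring tropoelastin and the cross-linking enzymes together, and lysyl oxidases join elastin molecules covalently. In the aorta most of this matrix is made by vascular smooth muscle cells early in life, and elastin turns over very slowly afterward.

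The libraries differed widely in the number of peaks and in the recovered pileup and background. The control female list held 21176 peaks, the VEDS male 41444, the control male 1236 and the VEDS female 504, all reaching down to a −log10 q between 1.303 and 1.321. The height of a peak is given as its summit pileup, the whole number of counts stacked at its highest base. Whether a count is a fragment or a Tn5 cut end is not given in the sources used here. The pileup could be worked back from the deposited values of 99.76% to 99.98% of peaks per list. Its median was 14 in control females, 7 in control males, 6 in VEDS females and 22 in VEDS males. The lowest local background recovered in a list was 6.57, 4.21 and 18.1 times that of the VEDS female for control females, control males and VEDS males. Promoter peaks were found for 6 of 6 smooth muscle markers (Myh11, Acta2, Tagln, Cnn1, Lmod1 and Smtn) in both long lists, and for none of them in the 2 short lists. Of 4 marker genes each, the control female and VEDS male lists had promoter peaks for 1 and 3 endothelial genes, 2 and 1 fibroblast genes, 0 and 1 immune genes, 0 and 1 adipocyte genes and 0 and 1 striated muscle genes. The absence of a peak in a short list was therefore not read as closed chromatin. List length did not follow the background alone, and what else set it was not tested. Chromosome Y held 30 and 46 peaks in the control and VEDS libraries of males and 15 and 0 in those of females, of which 27, 25, 5 and 0 lay outside its last megabase, where the pseudoautosomal region shared with chromosome X lies. Of the starts of 4 Y-linked genes (Ddx3y, Eif2s3y, Kdm5d and Uty), 1 had a peak within 3 kb in control males, 3 in VEDS males and 0 in either female library. The start of Xist, searched as a female marker, had no peak within 3 kb in any library.

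Peaks at the elastic fiber genes numbered 38 in control females, 2 in control males, 0 in VEDS females and 70 in VEDS males. As a share of each list these were 0.179%, 0.162%, 0% and 0.169%, and a count of 0 among 504 peaks allows a share of up to 0.595%, counting error only. Every one of the 10 genes had at least 1 peak in both the control female and the VEDS male lists, and the 2 control male peaks were both at Eln. Of the 72 regions, 35 had a peak in both long lists, 34 were found in the VEDS male list alone and 2 in the control female alone. The remaining region, Eln 4, was shared by the control male and VEDS male libraries. Regions are numbered along each gene from its upstream to its downstream side.

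**Figure D1:**
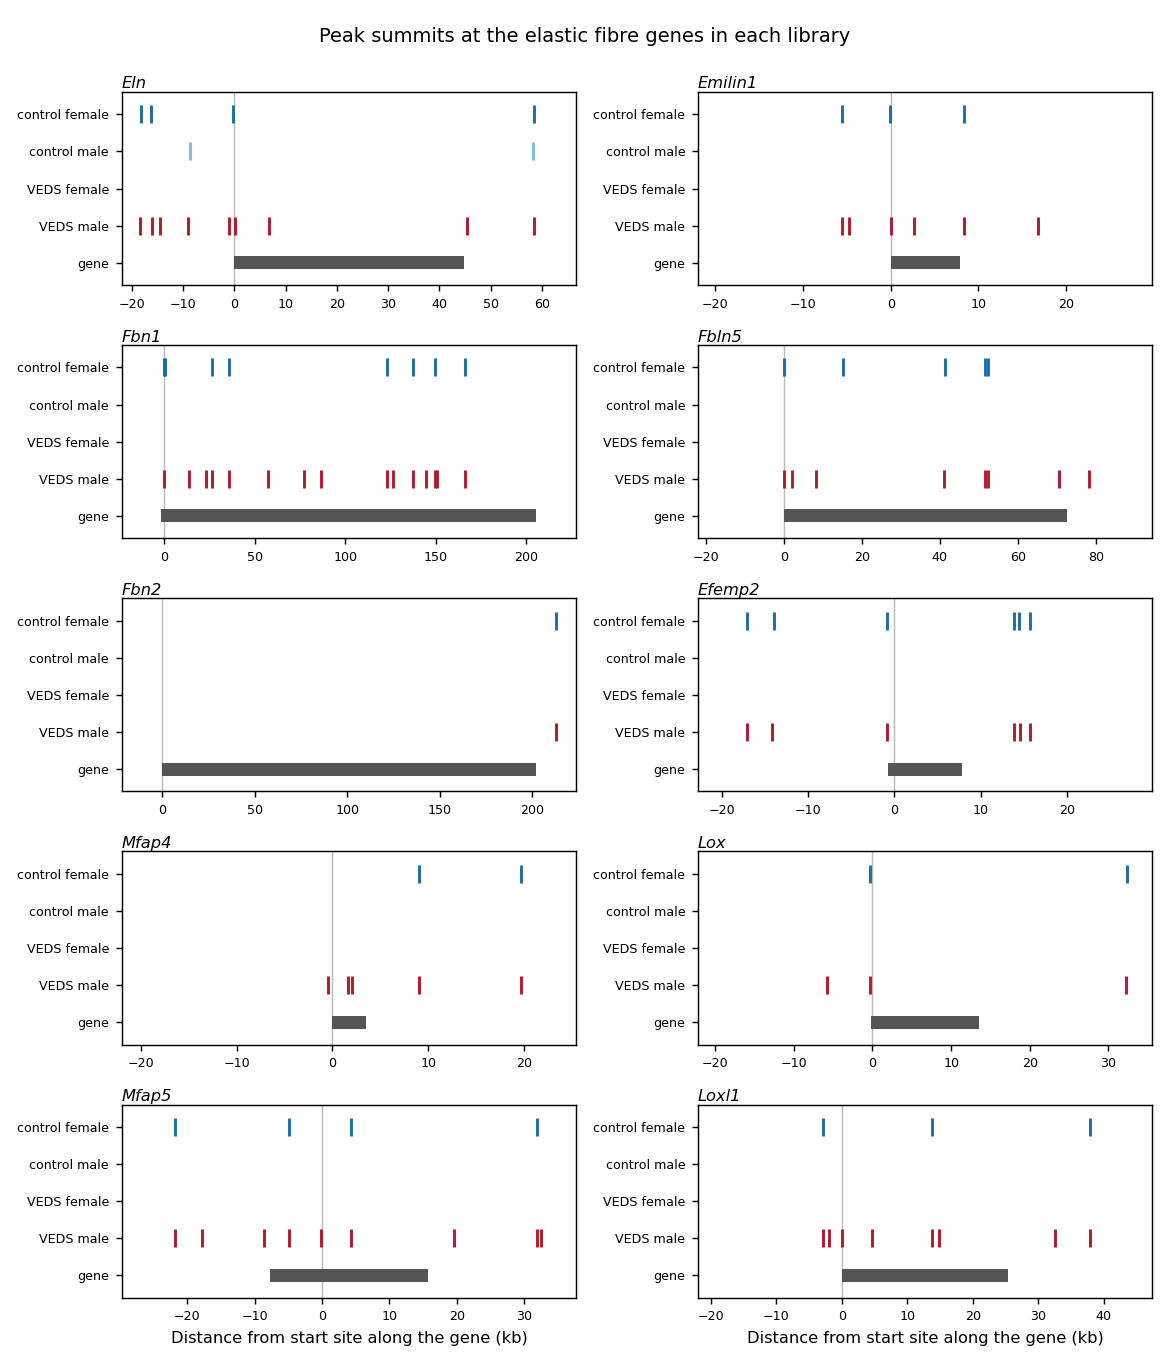
Peak summits of the 4 libraries at the 10 elastic fiber genes, with the distance from the main start site along the gene in kb on the x axis and the libraries and the gene body as rows. Of the 38 control female peaks, 36 overlap 1 of the 70 VEDS male peaks, Eln holds the only 2 control male summits, and the body of Fbn2 holds none.

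The stretches below show the DNA at the start sites of elastin, a fibulin and a microfibril-associated gene, each open in the VEDS male library. They were read from GRCm38 on the strand of the gene, each 150 bases long and centered on the VEDS male summit or moved upstream until it held no untranslated bases. Capitals mark GC boxes (GGGCGG on either strand) and, nearest the 5′ end of Eln 6, an NFAT consensus (GGAAAAT) that lies outside the 300-bp summit window counted below. No other motif searched was present in these 3 stretches. Those of Eln (chr5:134747324-134747473) and Fbln5 (chr12:101819056-101819205) end at the base before the start site, while that of Mfap4 (chr11:61484909-61485058) lies farther upstream.
Eln 6: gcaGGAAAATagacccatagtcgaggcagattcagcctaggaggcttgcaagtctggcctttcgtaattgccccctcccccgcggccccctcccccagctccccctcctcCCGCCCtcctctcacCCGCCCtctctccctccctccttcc
Fbln5 1: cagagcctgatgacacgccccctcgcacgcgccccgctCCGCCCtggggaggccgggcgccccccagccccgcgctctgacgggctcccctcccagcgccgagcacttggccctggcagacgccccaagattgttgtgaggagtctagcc
Mfap4 1: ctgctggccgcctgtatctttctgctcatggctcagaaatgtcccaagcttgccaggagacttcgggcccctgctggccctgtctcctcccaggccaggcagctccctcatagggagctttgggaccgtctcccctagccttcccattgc

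The next stretches are those that carry an AP-1, SRF CArG, TEAD or cyclic AMP response element (CRE) match inside a peak of both long lists, with 20 bases on either side. Capitals mark the matches, which are TGAGTCA or TGACTCA for AP-1, ACATTCC or GCATTCC for TEAD and TGACGTCA for CRE, on either strand. The CArG box, bound by serum response factor in muscle genes, is the match in capitals nearest the 3′ end in Fbln5 5 and the first and last in Efemp2 6, whose middle match is a CTCF consensus.
Loxl1 8: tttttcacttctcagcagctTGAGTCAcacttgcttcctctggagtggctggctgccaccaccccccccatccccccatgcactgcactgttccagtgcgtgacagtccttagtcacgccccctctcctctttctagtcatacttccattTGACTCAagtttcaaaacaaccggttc
Fbn1 15: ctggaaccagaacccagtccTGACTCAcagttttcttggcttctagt
Fbn1 5: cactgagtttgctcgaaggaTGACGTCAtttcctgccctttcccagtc
Fbln5 5: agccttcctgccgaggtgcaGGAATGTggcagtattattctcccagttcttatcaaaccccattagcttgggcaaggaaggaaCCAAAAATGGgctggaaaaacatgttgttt
Efemp2 6: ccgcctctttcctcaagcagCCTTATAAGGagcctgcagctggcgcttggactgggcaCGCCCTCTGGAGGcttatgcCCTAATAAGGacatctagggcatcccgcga
Eln 1: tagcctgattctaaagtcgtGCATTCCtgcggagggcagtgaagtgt
Mfap5 6: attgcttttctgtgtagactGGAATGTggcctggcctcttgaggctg
Mfap5 8: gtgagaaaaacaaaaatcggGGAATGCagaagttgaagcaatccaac
Loxl1 5: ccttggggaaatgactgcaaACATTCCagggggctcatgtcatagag

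Eln 4 is shown because it was the one distal region seen in a short list. The 150 bases lie in the overlap of its control male and VEDS male peaks (chr5:134756077-134756226) and hold none of the motifs searched.
Eln 4: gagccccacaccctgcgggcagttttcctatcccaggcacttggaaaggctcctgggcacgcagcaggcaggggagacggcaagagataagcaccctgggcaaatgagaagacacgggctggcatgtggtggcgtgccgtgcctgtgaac

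Eln, which encodes the elastin core, was surrounded by 9 regions. The region over its start site, Eln 6 (chr5:134747163-134747955), reached a pileup of 31 in control females and 77 in VEDS males, with no peak in the other libraries. It ranked in the top 20.6% and 11.4% of these lists by −log10 q. The VEDS male summit lay 55 bp downstream of the start site in the 5′ UTR and the control female summit 322 bp upstream, and the antisense gene Gm30003 starts at the same place, so that their openings cannot be separated. Of the 4 regions upstream of the promoter, 2 were at least as high as the promoter in both long lists. Eln 2, 16.2 kb upstream (chr5:134763249-134763807), had pileups of 38 and 97, above the promoter in both libraries. Eln 1, 18.4 kb upstream (chr5:134765453-134765784), had 31 and 85. Both lie inside Gm30003. Eln 4, 9.0 kb upstream, had a pileup of 7 in control males and 33 in the VEDS male and no peak in the control female, although the control female list was the longer of the 2 control lists. The summits of these peaks lay 8718 and 8972 bp upstream of the start site. The highest region near Eln, Eln 9 (chr5:134688559-134689340), had pileups of 46, 9 and 108 in control females, control males and VEDS males, but it lies 58.5 kb downstream of the start site over the start of Limk1, the neighboring kinase gene. Within the gene itself a single intronic region, Eln 7 in intron 1, was listed in VEDS males with a pileup of 28.

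The fibrillins, which build the microfibril scaffold, had the most and the fewest regions of the 10 genes, in counts not scaled to gene length. Fbn1, with the longest gene body of the 10 at 207.4 kb, held 15 regions, 14 of them intronic. Fbn2, nearly as long at 201.9 kb, held none within the gene and a single region downstream. The Fbn1 promoter region, Fbn1 1 (chr2:125505834-125506734), had a pileup of 12 in control females and 35 in VEDS males, with a second control female peak of 11 in the same region. It also lies within 1 kb of the start of Gm9913. The highest-ranking intronic region was Fbn1 5 in intron 4 (chr2:125470342-125470962), 35.7 kb into the gene, with pileups of 18 and 48, both higher than at the promoter. Of the 14 intronic regions, 6 had a peak in both long lists, in introns 2, 4, 14, 23, 32 and 43, with pileups of 6 to 18 in control females and 11 to 48 in VEDS males. The last of these, Fbn1 15 in intron 43, lay 166.3 kb into the gene and was close to the detection limit, with pileups of 6 and 11. The Fbn2 region lay 212.9 kb from the start site and had pileups of 6 and 17. No Fbn2 start site had a peak within 3 kb in any list.

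The microfibril-associated and interface genes differed in where they were open. At Mfap4, a small gene for a microfibril-associated glycoprotein, the control female library had no peak within 3 kb of a start site, and the VEDS male had 3, with pileups of 24 at 447 bp upstream, 28 over a coding exon and 20 in an intron. The 2 regions found in both lists near Mfap4 lie over the starts of neighbors, Mapk7 (pileups of 27 and 71) and B9d1 with its antisense gene B9d1os (12 and 34). Mfap5, which encodes another microfibril-associated glycoprotein, had 9 regions and no neighboring start sites among them. Its main start site had a peak in the VEDS male list alone, with a pileup of 18 and a rank in the lowest part of the list (86.1%). The highest Mfap5 region was in intron 3, Mfap5 6 (chr6:122517733-122518034), with pileups of 19 and 55. Mfap5 4, 4.9 kb upstream of the main start and within 3 kb of the start of a longer transcript, had 13 and 39. Emilin1, which encodes the interface protein emilin-1, had a peak over its start site in both lists, with pileups of 16 and 56. Farther downstream, Emilin1 5 had a VEDS male pileup of 44 (18 in the control female). It counts as an Emilin1 promoter only through a retained-intron transcript and lies at the start of Khk. Emilin1 1, the highest of its regions with pileups of 20 and 59, lies at the start of Ost4.

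The fibulin genes, whose products steer elastin assembly, were open in different parts. Fbln5 had 9 regions, of which 6 lay in the gene outside the promoter. Its start site region (chr12:101818786-101819230) had a pileup of 17 in control females and 24 in VEDS males. In VEDS males 3 intronic regions were higher than that, with 59 in intron 4 (Fbln5 5, chr12:101777552-101778222), 64 in intron 6 (Fbln5 6, chr12:101767386-101767797) and 54 in a second intron 6 region (Fbln5 7, chr12:101766540-101767096). The intron 3 region (Fbln5 3) was lower, with 16. In the control female library the same 3 higher regions had 16, 15 and 12, beside 17 at the promoter, so that their order there rests on small counts. Fbln5 4 in intron 4 was 1 of the 2 regions seen in control females alone, with a pileup of 9. Efemp2, a gene of 8.6 kb that encodes a fibulin known to bind lysyl oxidase, had 1 region of its own, Efemp2 4 (chr19:5473766-5474036), with pileups of 15 and 39. Its VEDS male summit lay 851 bp upstream of the main start site, and the region covers the start of another Efemp2 transcript. The other 6 Efemp2 regions all lie at the starts of neighbors: Ccdc85b, Fibp, Mus81 and Cfl1. The highest, Efemp2 5 at Mus81, had pileups of 37 and 87.

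Lox, which encodes lysyl oxidase, had the highest-ranking start site of the 10 genes. Lox 2 reached a pileup of 28 in control females and 93 in VEDS males, with ranks in the top 15.7% and 2.08%. Its fold enrichment over the local background, 9.46 and 14.2, was also the highest of the start site peaks in each list. The antisense gene AC161119.1 starts within 1 kb of it. Lox 3, 32.2 kb downstream of the start site, had pileups of 13 and 32, and Lox 1, 5.8 kb upstream, was listed in the VEDS male alone with 16. Loxl1, which encodes a lysyl oxidase tied to elastic fiber upkeep, had 8 regions. Its start site had a peak of 50 in VEDS males and none in the control female, although both lists shared a peak 2.9 kb upstream with pileups of 20 and 44. Its strongest regions by rank were Loxl1 8, 38 kb downstream of the start site and beyond the end of the gene (chr9:58274944-58275444), with pileups of 19 and 50, and Loxl1 5 in intron 1 (chr9:58299318-58299664), with 22 and 61.

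Start sites were open at most of the genes. With a promoter taken as 3 kb either side of any annotated start site, 8 of the 10 genes had a promoter peak in the control female list, where 47.4% of 21938 protein-coding genes had one, and 9 in the VEDS male, where 58.5% did. The short lists had a promoter peak at 0 of the 10, and at 1.56% (control male) and 1.49% (VEDS female) of protein-coding genes. Within 1 kb the counts were 6 in the control female list (44.9% of all genes) and 9 in the VEDS male (55.5%). The genes that differed were Mfap4, Mfap5 and Loxl1, each with a peak within 1 kb in the VEDS male alone. Their VEDS male pileups at the start site, 24, 18 and 50, fell within the range of 24 to 93 of the shared start sites for Mfap4 and Loxl1 and below it for Mfap5. Their VEDS male fold enrichment there, 4.28, 3.53 and 4.81, was below that of every shared start site (5.97 to 14.2). Among 20 other elastic fiber and microfibril genes, 9 had a promoter peak within 3 kb in the control female list and 13 in the VEDS male, and these included Fbln2, Ltbp1, Ltbp3, Ltbp4, Loxl3, Adamts10, Adamtsl4, Bgn and Vcan in both. The Ltbp genes encode latent TGF-β binding proteins of the microfibril, Bgn and Vcan proteoglycans, and Loxl3 a further lysyl oxidase. Ltbp2, Loxl2, Loxl4 and Adamtsl2 had a promoter peak in the VEDS male list alone, and Fbln1, Efemp1, Mfap2, Emilin2, Emilin3, Dcn and Tnxb had none in either. Adamtsl4 was also the 1 gene of the 20 with a promoter peak in the VEDS female list, and none had one among control males.

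**Figure D2:**
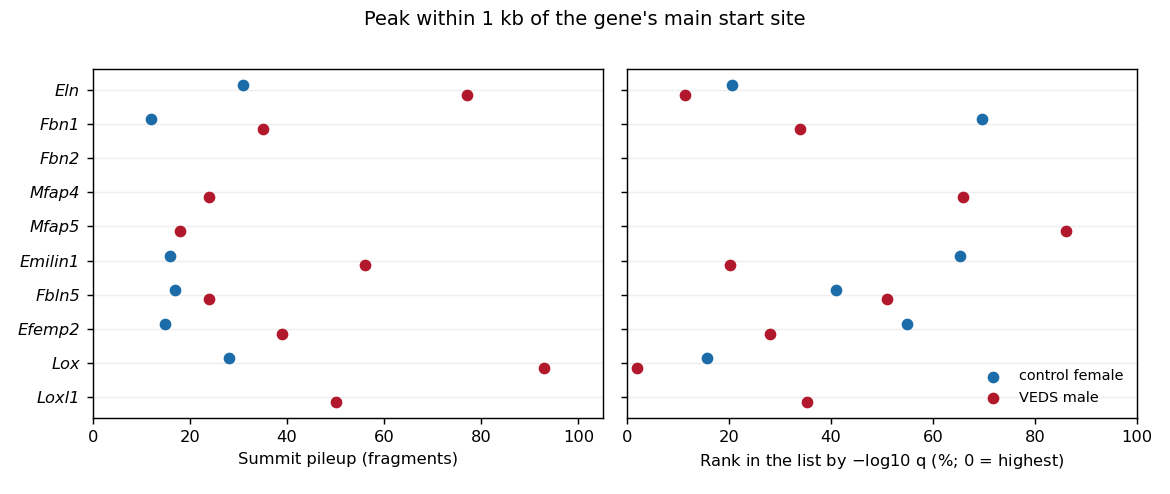
Peaks within 1 kb of the main start site of each gene in control females and VEDS males. The summit pileup, labeled as fragments on the axis, is at left, and the rank in the list by −log10 q in percent (0 is the highest) is on the right. Lox and Eln stand highest in both lists, Mfap4, Mfap5 and Loxl1 have a point in VEDS males alone, and Fbn2 has none.

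The median gene of the 10 had 3.5 peaks in the control female list and 7 in the VEDS male, against 1 and 2 for all protein-coding genes in windows made the same way, without matching for gene length. Peaks at these genes were of middling strength. Their median rank was 50.2% in the control female list and 39.0% in the VEDS male, and 1 of 38 and 4 of 70 were in the top 10% by rank. Their median pileup was 16 in control females and 31 in VEDS males, against 14 and 22 over all peaks. By position, 19 regions lay at the gene's own promoters, 25 in the gene outside them, 12 upstream and 16 downstream. Of all 72, 16 lay within 1 kb of a start site of another gene.

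The long lists were then compared directly. Of the 70 VEDS male peaks at these genes, 35 overlapped a control female peak (50%), beside 47.6% of all 41444 VEDS male peaks. Of the 38 control female peaks, 36 overlapped a VEDS male peak (94.7%), beside 95.0% of all. Both shares were near the background. With the VEDS male list reduced to its 21176 peaks of highest −log10 q, the length of the control female list, 42 regions were in it and 32 were shared. The VEDS male pileup of the regions without a control female peak was 10 to 51, with a median of 22, and that of the shared regions 11 to 108, with a median of 48. Over all VEDS male peaks the medians were 15 without and 37 with an overlapping control female peak.

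The relative height of the 35 shared regions was compared after scaling to the median ratio. Regions with a peak in only 1 of the 2 long lists did not enter, so that the largest differences could be left out. Over all 19646 regions shared by the 2 lists, the VEDS male pileup was 2.45 times the control female pileup at the median, and each region was set against this ratio on a log2 scale. The 35 regions ranged from −0.80 to 0.87, with a median of 0.10. None was over 2-fold higher or lower, where 0.692% of all shared regions were over 2-fold higher and 1.40% over 2-fold lower. None had a 95% Clopper-Pearson counting interval that left out the median ratio, as 1.70% of all shared regions did. The counts are small, and for 22 of the 35 regions the interval reached past 2-fold on at least 1 side. A difference of that size was not excluded there. Eln 6 lay at 0.02 (−0.60 to 0.67), Eln 2 at 0.06 (−0.50 to 0.64) and Lox 2 at 0.44 (−0.19 to 1.10). Both ends of the range were at Fbln5, with the start site lowest at −0.80 (−1.76 to 0.19) and the intron 6 regions highest at 0.80 (−0.03 to 1.72) and 0.87 (−0.05 to 1.91). The intron 4 region lay at 0.59 (−0.23 to 1.48). Summits of shared regions were 45 bp apart at the median, beside 35 bp over all, and the distance at Eln 6 was 377 bp. At Fbn1 1 it was 439 bp from the higher of the 2 control female peaks, while the summit of the lower peak lay 13 bp from the VEDS male summit.

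**Figure D3:**
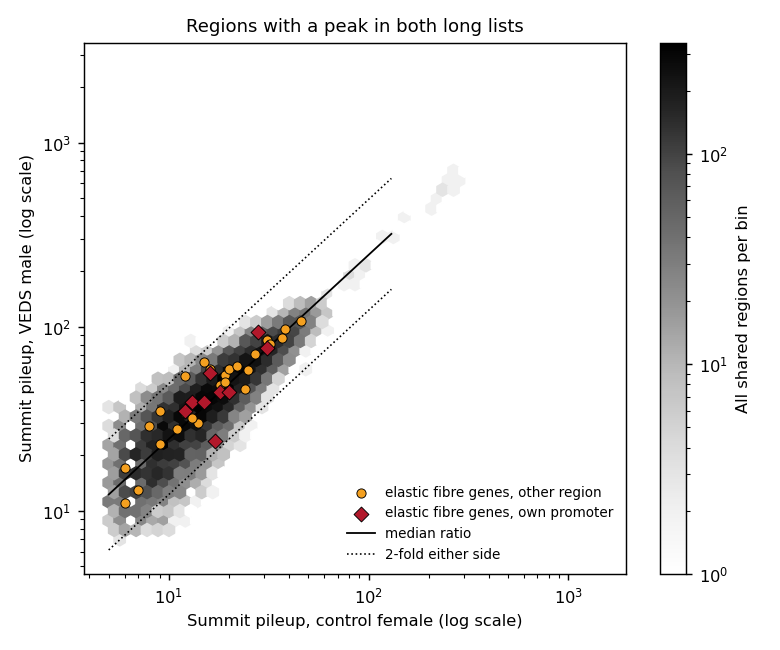
Summit pileup in control females (x axis) and the VEDS male library (y axis), both on log scales, for the 35 shared regions at the elastic fiber genes over all 19646 shared regions (grey bins). The solid line is the median ratio of 2.45 and the dotted lines are 2-fold either side. All 35 points lie between the dotted lines, with the Fbln5 promoter nearest the lower one.

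Motif matches were counted in 300-bp windows on the summits, on both strands. AP-1 matches were present in 6 of 72 regions (8.3%), beside 11.6% of all windows in each long list and 5.2% of 32817 RefSeq promoters of the same length. Loxl1 8 held 2 of them, 123 bp apart and 74 bp and 56 bp from the summit, and Fbn1 15 held 1 at 78 bp from the summit. The other AP-1 matches were in Mfap5 7, Mfap5 9, Lox 1 and Loxl1 2, none of which had a control female peak. In Mfap5 7 the match lay outside the VEDS male peak. The CArG box was present in 6 regions (8.3%), beside 3.02% of all control female windows, 3.09% of VEDS male windows and 1.63% of promoters. Away from the starts of other genes these were Fbn1 3, Fbn1 8, Fbln5 5 and Lox 1. Emilin1 2 lies at the start of Ost4. Efemp2 6, with 2 boxes 48 bp apart, lies within 1 kb of the starts of Mus81, Cfl1 and AC126029.2. Without regions within 1 kb of another gene's start, 4 regions held one, and the backgrounds were not filtered in this way. In Fbn1 8 and Lox 1 the box lay outside the peak. Fbn1 3, Fbn1 8, Emilin1 2 and Lox 1 had no control female peak. Only 2 regions, Fbln5 5 and Efemp2 6, had a box inside a peak of both long lists.

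TEAD matches were found in 6 regions (8.3%, beside 10.3% and 10.7% of all control female and VEDS male windows and 7.0% of promoters), and 5 of these had the match inside a peak of both lists: Eln 1, Mfap5 6, Mfap5 8, Fbln5 5 and Loxl1 5. Fbln5 5 carried a TEAD match and a CArG box 56 bp apart, 41.0 kb and 41.1 kb from the start site. MEF2 matches were found in 3 regions (4.2%, beside 5.55%, 5.79% and 3.19%), which were Fbn1 10, Mfap5 3 and the region downstream of Fbn2, where the match lay inside the peak of both lists, 132 bp from the VEDS male summit. The MEF2 match in Mfap5 3 overlaps the only TATA box found (1.4% of regions, beside 5.32%, 5.87% and 8.74%). The CArG box and TEAD match in Fbn1 8 overlap by 2 bp. The single CRE (1.4% of regions, beside 2.59%, 1.77% and 1.79%) lay 19 bp from the summit of Fbn1 5, the strongest Fbn1 intron. RUNX matches (TGTGGTT) were present in 5 regions (6.9%, beside 4.42%, 5.14% and 5.27%), CTCF in 6 (8.3%, beside 5.06%, 6.53% and 2.55%), GC boxes in 18 (25%, beside 40%, 29.7% and 35.6%), CCAAT in 24 (33.3%, beside 36.8%, 33.7% and 37.4%) and NFAT (GGAAAAT) in 2 (2.8%, beside 5.06%, 5.48% and 4.82%). Without regions within 1 kb of another gene's start, CTCF matches were in 2 regions, GC boxes in 8 and CCAAT in 17. No region held a steroid response element, which 0.696% of all control female windows, 0.607% of VEDS male windows and 0.222% of promoters held. None held an NFI consensus (0.0521%, 0.0556% and 0.0366% of windows) or a palindromic SMAD consensus, GTCTAGAC (0.379%, 0.348% and 0.213%). A missing match says only that these letters are not in the window.

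**Figure D4:**
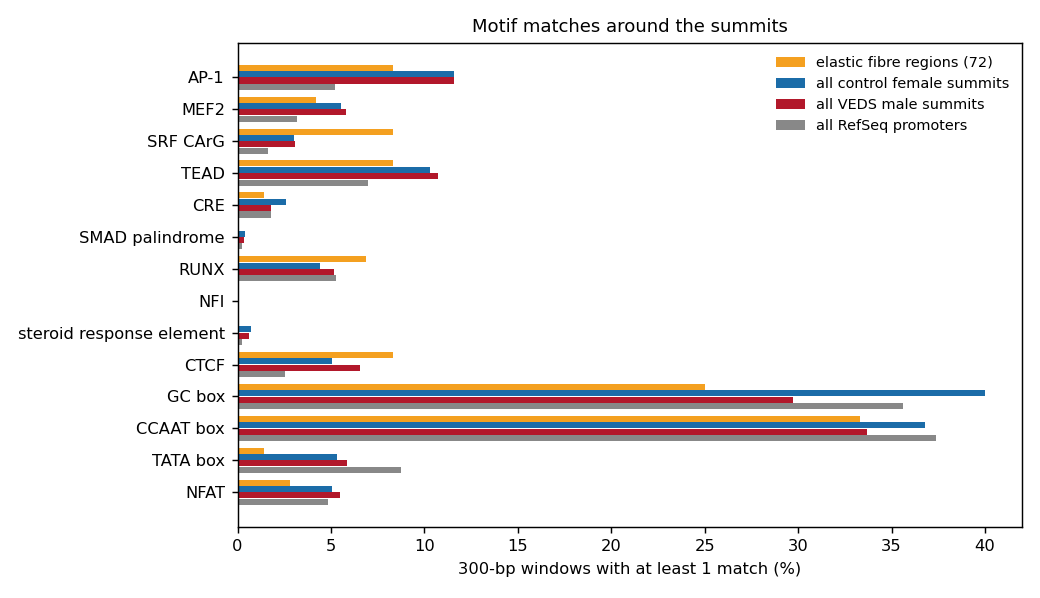
Share of 300-bp windows with at least 1 match of each motif, in percent, for the 72 elastic fiber regions, all control female summits, all VEDS male summits and all RefSeq promoters. The AP-1 share of 8.3% lies between the promoters and the summits of both lists, and the CArG share of 8.3% is above all 3 backgrounds and rests on 6 regions.

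In base composition the own-promoter windows had a median of 59.0% GC and those away from any start site 49.7%. The median of all 72 was 53.2%, beside 56.0% over all control female windows and 53.3% over all VEDS male windows. CpG dinucleotides were at 0.23 of the number expected from base composition at the median, beside 0.46 and 0.33. Of the start site windows, Fbln5 1, Fbn1 1, Efemp2 4 and Eln 6 had the most, at 0.79, 0.71, 0.62 and 0.60. Mfap4 1, without a control female peak, had the fewest, at 0.14.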

How the data were processed

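Chromatin accessibility was measured in 4 aortic libraries at P60, grouped by genotype from the sample annotations. The authors processed nuclei with a single-cell ATAC kit, analyzed each library in aggregate, aligned reads to mm10 (GRCm38), removed duplicates by barcode, adjusted for the Tn5 cut position and ran MACS2 in its narrow mode, leaving out the mm10 blacklist. The aligner and peak threshold are not given in the sources used here. The deposited lists, 1 per library, give the fold enrichment at the summit (a ratio to the local background, with a pseudocount of 1), −log10 p and −log10 q by the authors, and a deposited score that is 10 times −log10 q without decimals and was not used.

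All 64205 peaks on chromosomes 1 to 19, X and Y fit the lengths of GRCm38, and 155 on other sequences were not used. Peaks were assigned with GENCODE vM21, with the main start site from the APPRIS principal transcript. Summit pileup k was the whole number whose Poisson tail above k matched −log10 p within a share of 0.0001. The tail of k or more, planned first, recovered 0.08% to 0.81% of peaks and was replaced. Scripts were tested on simulated data. Total reads per library were not used, so that pileup is the measure of depth. Intervals take the counts as independent and cover counting error only. The genes, lists and motifs were chosen with earlier results of these data known. Regions named one by one were each gene's own promoter region, regions in a short list, the highest-ranking region outside the promoter, and those with an AP-1, MEF2, CArG, TEAD or steroid response element match in a peak of both long lists. Other regions named, the CRE site, the sex-linked starts and the comparison of relative pileup were chosen after their values were seen. Stretches of sequence were read from RefSeq GRCm38.p6, whose promoter table (250 bases before to 50 after the start) includes 4 of the 10 genes and served as a background. Sequences of some start site regions are not reported here. The scripts ran in Python 3.11.15 (pandas 2.3.3, numpy 2.4.6, pysam 0.24.0, scipy 1.17.1, matplotlib 3.10.9). Alternatives were other windows around the gene, −log10 q of at least 5 and 10, other overlap rules, equal list length, a 1-kb promoter, protein-coding transcripts alone, other motif windows and consensus sequences, and leaving out each library.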

Additional observations from a re-analysis of the deposited data

Results flagged for a closer look

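The number of peaks at the elastic fiber genes moved in opposite directions between genotypes in the 2 sexes. In females the VEDS library had 0 peaks and the control library 38, a VEDS minus control difference of -38, and in males the VEDS library had 70 and the control library 2, a difference of 68. Each sex has 1 library per genotype, the difference was not tested, and the lists of all peaks differed in length in the same directions (504 against 21176 and 41444 against 1236).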

How the results depend on the processing

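The 72 regions became 38 in the gene body alone and 47 with −log10 q of at least 10, and stayed within 1.5 times of 72 with windows of 10 and 50 kb, −log10 q of at least 5 and merging within 100 bp. Leaving out 1 library gave 39 to 72 regions, with 39 without the VEDS male library. The 35 regions in both long lists became 17 with −log10 q of at least 10, 18 in the gene body alone, 53 within 50 kb and 23 without regions within 1 kb of another gene's start site. The other alternatives gave 25 to 32. The 9 genes with an own promoter peak in any list were 8 to 9 when a library was left out. With all lists at the length of the shortest, 504 peaks, 0 genes had one in any list, in the control female or in the VEDS male. With −log10 q of at least 10 the control female count fell from 8 to 4, and the VEDS male count was 9. Counts of shared regions past 2-fold were 0 in each direction with either centering. Motif counts depended on the window, with 3, 6 and 5 AP-1 regions in 150-bp windows, 300-bp windows and peak intervals and 14 with a relaxed consensus. CArG regions numbered 3, 6, 4 and 7 in the same order, and TEAD regions 2, 6, 7 and 11. A relaxed steroid response half-site pair was found in 8 regions, a relaxed SMAD consensus in 12 and a relaxed NFAT consensus in 15. The relaxed consensus sequences were not counted over all windows, so that no background share stands beside the relaxed counts. No paired analysis was made, as no test between genotypes was made and the labels give the libraries no shared replicate numbers. Sex could pair the libraries in 2 pairs, and the differences within each sex are given as values. Total reads were not used, so that depth and signal quality cannot be told apart in the short lists.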
